A study of Caenorhabditis elegans with 6 samples.

Results

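Genes for the breakdown of acyl-CoA and propionate in mitochondria were compared between wild type and *alh-4(-)* worms. The set was defined by gene names, with earlier results of these data known. Transcript levels do not show where a protein is located. It holds the *acdh* genes for acyl-CoA dehydrogenases, the *ech* genes for enoyl-CoA hydratases other than *ech-3* and *ech-8*, the *cpt* genes for carnitine palmitoyltransferases, and *kat-1*, *hach-1*, *ivd-1*, *mce-1*, *mmcm-1*, *mmaa-1*, *pcca-1*, *pccb-1*, B0272.3 and T08B2.7. This gave 36 of the 28641 genes listed, made up of 13 *acdh*, 7 *ech*, 6 *cpt* and 10 other genes. *hach-1* was found under its locus tag, F09F7.4, and the other 35 under the names given. Of the 36 genes, 35 had a mean FPKM of at least 1 and were tested. The remaining one, *ech-9*, was listed at 0 in 4 libraries and at 0.398 and 0.953 in replicate 3 of WT and of *alh-4(-)*, and was not tested.

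Fatty acids enter mitochondria as carnitine esters, made and unmade by carnitine palmitoyltransferases, and are then shortened in rounds of β-oxidation. Each round needs an acyl-CoA dehydrogenase, an enoyl-CoA hydratase, a 3-hydroxyacyl-CoA dehydrogenase and a thiolase, and the breakdown of branched-chain amino acids uses relatives of the same enzymes. Odd-chain fatty acids and some amino acids leave propionyl-CoA, which worms break down either by a pathway that needs vitamin B12 or, when B12 is scarce, by a β-oxidation-like route called the propionate shunt.

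RNA sequencing was done on whole worms at the L4 stage, the last larval stage, in 3 biological replicates of either genotype, 1 library per replicate. WT worms were the laboratory strain Bristol N2. The *alh-4(-)* worms carried the deletion allele *hj221* in the same background. All were synchronized, fed *E. coli* OP50 and left untreated. *alh-4* encodes a membrane-anchored aldehyde dehydrogenase that turns fatty aldehydes into fatty acids, and the study compared gene expression after testing how the worms withstood oxidants, to look for the molecular basis of their response. The values are FPKM, fragments per length of transcript and per number of mapped fragments, as deposited. Since RNA came from whole worms, fewer cells of a type and less RNA per cell cannot be told apart.

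Replicate 1 of both genotypes stood apart. It listed 19102 genes above 0 in WT and 17623 in *alh-4(-)*, against 21058 to 22670 in the other libraries, and the first principal component, with 45.1% of the variance, separated it from them. The FPKM of *alh-4* itself was 352, 291 and 336 in WT and 33.7, 24.6 and 35.2 in *alh-4(-)* replicates 1, 2 and 3. In the limma fit it fell by 3.36 on the log2 scale, with a standard error of 0.22 and an adjusted p of 0.00301. Deleted sequence gives no reads, so this checks the labels and does not by itself measure the transcript. Markers of other cell types were summed in each library. All 6 oocyte markers were higher in every *alh-4(-)* library than in any WT library, with summed FPKM from 3499 to 4658 in WT and from 5643 to 6472 in *alh-4(-)*, and none was at 0. None of them passed an adjusted p of 0.05, and 5 had an unadjusted p under 0.05. The sums for 6 markers of intestine, where much of the fat of a worm is stored, overlapped between genotypes (13961 to 21750 in WT and 12177 to 19692 in *alh-4(-)*), as did those for hypodermis (16626 to 29940 and 19218 to 23326). The hypodermis sum came mostly from *dpy-13* (log2 fold change -0.02), and the median log2 fold change of the 6 markers was -0.74. *dpy-7* was at -1.28, *rol-6* at -0.79, *elt-3* at -0.68 and *sqt-3* at -0.89, while *lin-26* went the other way, at 0.40. Of the 6 hypodermis markers, only *sqt-3* had an unadjusted p under 0.05, and none passed an adjusted p of 0.05. No marker of body wall muscle, pharynx, neurons, germ line or sperm had an unadjusted p under 0.05. The part of these marker levels in the results below was not tested.

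None of the 35 tested genes of acyl-CoA and propionate breakdown passed an adjusted p of 0.05, and their lowest adjusted p was 0.608. Across all 16225 tested genes, 23 passed it, or 0.142%. The tested members differed little in level between the genotypes. Their log2 fold changes, *alh-4(-)* against WT on the log2(FPKM + 1) scale, ran from -0.92 to 0.48 with a median of 0.01, against a median of 0.07 over all tested genes. They lay within 0.5 of 0 in 32 of 35 members (91.4%) and in 78.1% of all tested genes. The 95% interval of the fold change stayed within 1 of 0 on the log2 scale in 24 members (68.6%), against 39.6% of all tested genes. The median standard error was 0.22 for the members and 0.36 over all tested genes. Its part in these shares was not tested. The intervals of the other 11 reached past a 2-fold change in at least 1 direction.

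An unadjusted p under 0.05 was found for 4 of the 35 members, against 4.97% of all tested genes. Of these, *cpt-2* and *acdh-10* were higher in *alh-4(-)* worms, where 3.12% of all tested genes were, and *hach-1* and *ech-1* were lower, where 1.84% were. The libraries of the genotypes did not overlap in 5 members, against 9.21% of all tested genes. *cpt-2* and *acdh-10* were the separated members with higher values in *alh-4(-)* (5.97% of all tested genes), and *hach-1*, *ech-1* and *acdh-9* those with lower values (3.25%). No member had both an unadjusted p under 0.05 and a fold change over 2, which 473 of all tested genes had.

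**Figure D1:**
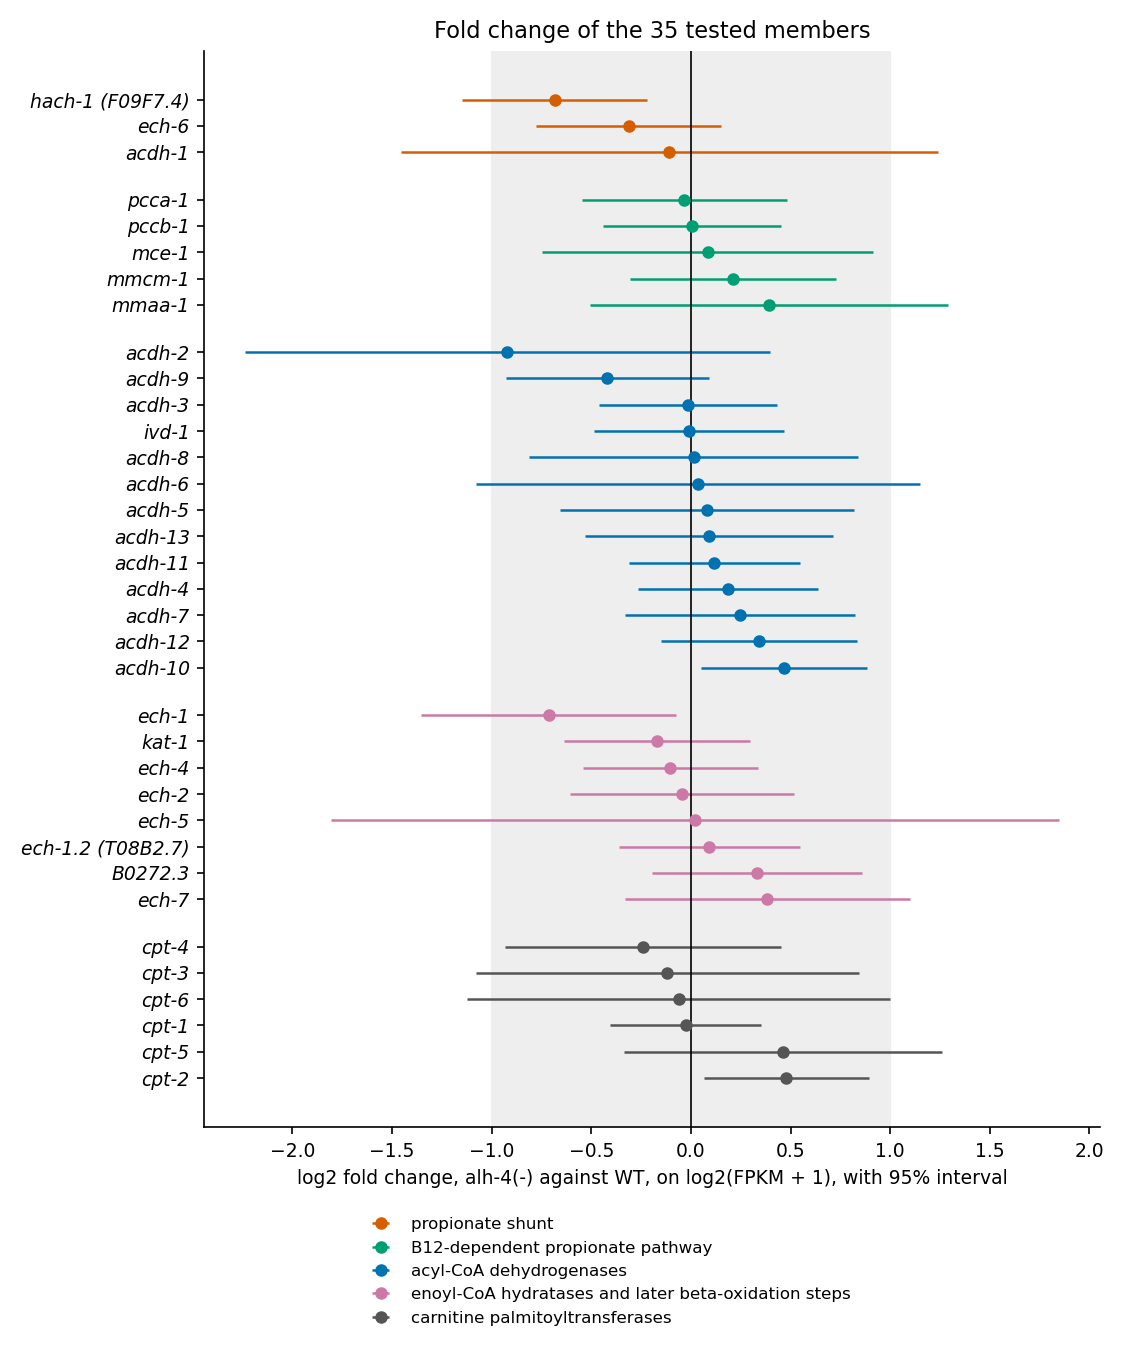
Log2 fold change of each of the 35 tested members, *alh-4(-)* against WT on the log2(FPKM + 1) scale, with its 95% interval from limma and grouped by role. The shaded band spans -1 to 1. Most points lie within 0.5 of 0, and the intervals of *hach-1* and *ech-1* lie below 0 and those of *cpt-2* and *acdh-10* above it.

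The propionate shunt has 5 known genes in worms, of which *acdh-1*, *ech-6* and *hach-1* belong to the set. The other two, *hphd-1* and *alh-8*, are given beside them. None of the 5 passed the adjusted threshold. The genotypes overlapped for *acdh-1* and *ech-6*, the genes of the first steps, and were separate for the other 3. *acdh-1* encodes the dehydrogenase of the first step and is widely used as a reporter of low B12. Its FPKM was 1717, 5198 and 3725 in WT and 1364, 4595 and 4237 in *alh-4(-)* replicates 1, 2 and 3. Replicate 1 was the lowest library of each genotype by a wide margin, and the genotypes overlapped. The interval of its log2 fold change, -0.11, ran from -1.46 to 1.24 and so reached past a 2-fold change in both directions. Leaving out replicate 1 of WT gave -0.56 and leaving out replicate 1 of *alh-4(-)* gave 0.46. Leaving out both replicate 1 libraries gave 0.0040 (standard error 0.24, against 0.57 with all libraries). Taking the replicate number as a block kept -0.11 and brought the standard error to 0.17. *acdh-1* had a mean FPKM above that of 99.2% of tested genes.

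*ech-6* encodes the hydratase that acts next in the shunt. Its FPKM was 3206, 2693 and 2567 in WT and 2654, 1953 and 2231 in *alh-4(-)*. The highest *alh-4(-)* library, replicate 1, lay between the WT libraries, and the log2 fold change was -0.31 (95% interval -0.78 to 0.15).

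*hach-1* (F09F7.4) encodes the hydrolase that frees 3-hydroxypropionate from CoA. Its FPKM was 941, 697 and 712 in WT and 532, 445 and 475 in *alh-4(-)* worms. Every *alh-4(-)* library lay below every WT library, and replicate 1 was the highest of each genotype. The means were 783 ± 137 and 484 ± 44.1 (SD, n = 3), and the log2 fold change was -0.68 with a 95% interval of -1.15 to -0.22. It had the lowest p among the members, 0.0103 unadjusted and 0.608 adjusted over all tested genes by limma. The unadjusted p stayed under 0.05 in each of the 16 alternatives tried, with log2 fold changes from -0.77 to -0.55. The adjusted p did so in none.

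*hphd-1* (Y38F1A.6) encodes the dehydrogenase that oxidizes 3-hydroxypropionate. Its FPKM was 1811, 1878 and 2211 in WT and 983, 1561 and 1527 in *alh-4(-)*, again without overlap. *alh-4(-)* replicate 1 was by far the lowest library. A log2 fold change of -0.56 (unadjusted p = 0.0476, adjusted p = 0.994, limma) resulted. Its unadjusted p was under 0.05 in 7 of 16 alternatives. Those with a p over 0.05 included, among others, every fit with 1 library left out. Without both replicate 1 libraries the log2 fold change was -0.40.

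*alh-8* encodes the aldehyde dehydrogenase that makes acetyl-CoA in the last step. It was listed at 7318, 5061 and 4951 FPKM in WT and at 4359.8, 3492 and 3483 in *alh-4(-)*. All WT libraries lay above all *alh-4(-)* libraries, and replicate 1 was the highest in both genotypes. On the log2 scale the fold change was -0.60 (unadjusted p = 0.0313, adjusted p = 0.910, limma), and -0.41 without WT replicate 1. The unadjusted p was under 0.05 in 9 of 16 alternatives. Those with a p over 0.05 included, among others, the fits without WT replicate 1 or *alh-4(-)* replicate 2 or 3.

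Thus 3 of the 5 shunt genes, those of the last 3 steps, had an unadjusted p under 0.05 with lower values in *alh-4(-)* and separate libraries, beside 1.84% of all tested genes with such a p and lower values and 3.25% with separate and lower values. The median log2 fold change over the 5 was -0.56. The difference in fold change between *acdh-1* and the other shunt genes was not tested. Summed over the shunt genes other than *acdh-1*, FPKM was 13275, 10328 and 10442 in WT and 8528, 7450 and 7716 in *alh-4(-)*. These sums did not overlap between the genotypes, but they include the 3 genes already given as separate and are no further evidence. The level of *acdh-1* in replicate 1 was lower than in replicates 2 and 3 of both genotypes, and so was that of *hphd-1*, whereas *ech-6*, *hach-1* and *alh-8* were higher there.

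**Figure D2:**
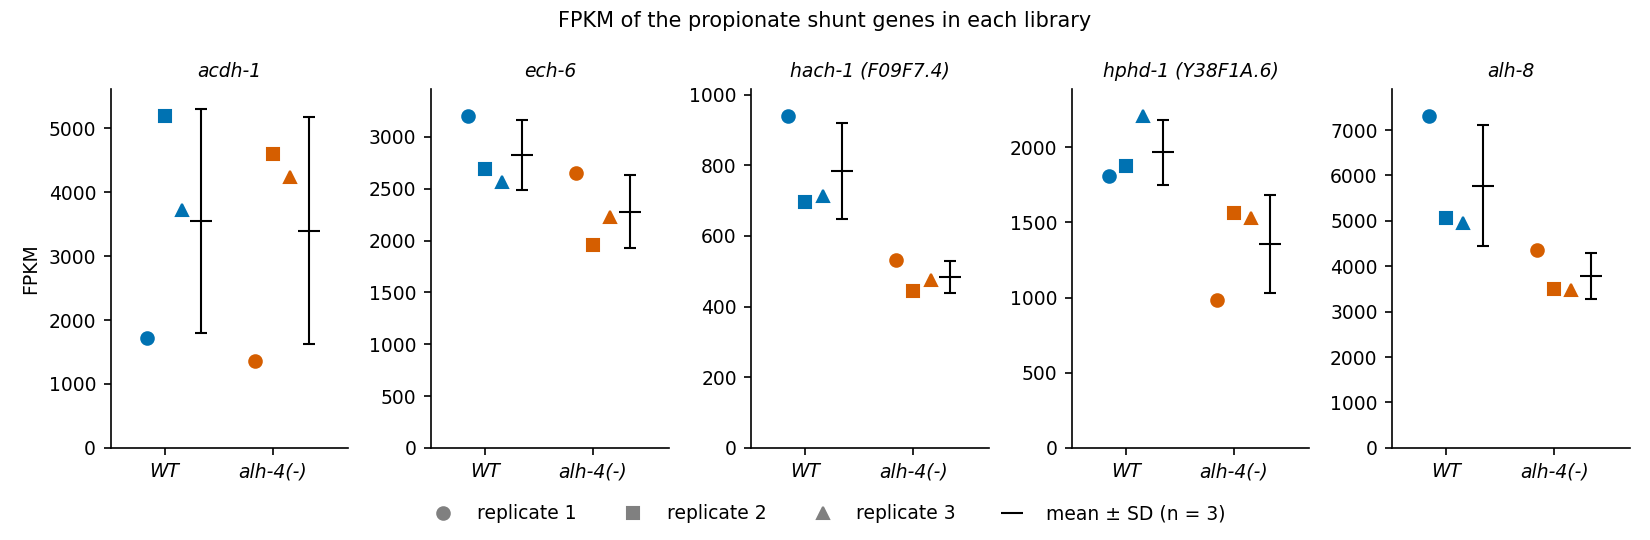
FPKM of the 5 propionate shunt genes in each library, 1 panel for each gene with its own linear axis from 0. Marker shapes give the replicate, and horizontal lines with bars are the mean and SD of 3 libraries. *hach-1*, *hphd-1* and *alh-8* show separate genotypes, and replicate 1 is the lowest library of each genotype for *acdh-1*.

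In the B12-dependent pathway propionyl-CoA is carboxylated, epimerized and rearranged to succinyl-CoA. None of its 5 members in the set had separate genotypes or an unadjusted p under 0.05, and their median log2 fold change was 0.08. *pcca-1* and *pccb-1* encode the subunits of propionyl-CoA carboxylase. *pcca-1* had FPKM values of 1008, 1171 and 744 in WT and 876, 914 and 1025 in *alh-4(-)*, with a log2 fold change of -0.03 (95% interval -0.55 to 0.48). *pccb-1* had 1379, 1254 and 994 in WT and 1242, 1189 and 1177 in *alh-4(-)*, with a log2 fold change of 0.01 (95% interval -0.44 to 0.45). For both, the *alh-4(-)* values lay inside the range of the WT values.

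*mmcm-1* encodes methylmalonyl-CoA mutase, the enzyme that uses B12. Its FPKM was 139, 191 and 164 in WT and 163, 186 and 224 in *alh-4(-)*, with a log2 fold change of 0.21 (95% interval -0.31 to 0.73). The genotypes overlapped, and replicate 1 was the lowest in each. *mmaa-1* is the worm counterpart of human MMAA, which loads B12 onto the mutase. Its FPKM was 82.8, 125 and 126 in WT and 81.1, 182 and 199.5 in *alh-4(-)*. Replicates 2 and 3 of *alh-4(-)* were above all WT libraries and replicate 1 was below them. A log2 fold change of 0.39 was found (95% interval -0.51 to 1.29), and it was 0.80 without *alh-4(-)* replicate 1, where the unadjusted p was under 0.05. *mce-1*, the gene of the epimerase, was near the limit for testing, at 3.13, 4.55 and 3.15 FPKM in WT and 5.51, 2.87 and 3.48 in *alh-4(-)*. Its libraries overlapped, with a log2 fold change of 0.08 (95% interval -0.75 to 0.92).

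Among the 12 other *acdh* genes and *ivd-1*, the gene of isovaleryl-CoA dehydrogenase in leucine breakdown, 9 had a log2 fold change above 0 and 4 below, with a median of 0.08. *acdh-10* encodes a relative of human medium-chain acyl-CoA dehydrogenase. Its FPKM was 931, 749 and 862 in WT and 1094, 1161 and 1253 in *alh-4(-)* worms. All *alh-4(-)* libraries were above all WT libraries. The means were 847 ± 91.6 and 1169 ± 80.01 (SD, n = 3), and the log2 fold change was 0.47 with a 95% interval of 0.05 to 0.88 (unadjusted p = 0.0322, adjusted p = 0.910, limma). The unadjusted p was under 0.05 in 9 of 16 alternatives, and over it without replicate 2 or 3 of either genotype, with upper quartile or median scaling, and without a variance trend.

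*acdh-9* was separated in the other direction, at 286, 217 and 202 FPKM in WT and 199, 159 and 166 in *alh-4(-)*. The gap between the lowest WT and the highest *alh-4(-)* library was small, and the log2 fold change of -0.42 had a 95% interval of -0.93 to 0.09 (unadjusted p = 0.0928, limma). *acdh-2* had the lowest log2 fold change of the members, -0.92 (95% interval -2.24 to 0.40). Its FPKM was 181, 82.5 and 77.7 in WT and 23.8, 85.7 and 81.1 in *alh-4(-)*, so that replicate 1 was the highest library of WT and the lowest of *alh-4(-)* while the other 4 libraries were close together. Without both replicate 1 libraries the log2 fold change was 0.06.

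The remaining *acdh* genes overlapped between the genotypes, with log2 fold changes from -0.01 to 0.34. *acdh-12*, a relative of human very-long-chain acyl-CoA dehydrogenase, had 403, 498 and 595 FPKM in WT and 567, 628 and 685 in *alh-4(-)*. *acdh-11*, known in worms for a role in adapting fat desaturation to temperature, had 318, 256 and 298 in WT and 305, 299 and 339 in *alh-4(-)*. *ivd-1* was among the most abundant members, at 2270, 1869 and 2627 in WT and 2504, 1981 and 2204 in *alh-4(-)*. The WT and *alh-4(-)* values of *acdh-11* and *ivd-1* were interleaved, and those of *acdh-12* overlapped in 1 pair of libraries. In FPKM, which is per transcript length, *acdh-1* made up 30.8%, 61.0% and 47.4% of the summed *acdh* family in WT and 26.2%, 52.1% and 47.8% in *alh-4(-)*, with replicate 1 the lowest in both.

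The later steps of β-oxidation were represented by 8 tested genes, with log2 fold changes from -0.71 to 0.38 and a median of -0.01. *ech-1*, named for the hydratase and dehydrogenase subunit of the mitochondrial trifunctional protein, had FPKM values of 50.3, 74.3 and 60.1 in WT and 28.1, 38.6 and 45.6 in *alh-4(-)*. The name of this row is not a current symbol and has no gene model in the annotation used, so which gene it measures is uncertain. Each *alh-4(-)* library was below each WT library, and replicate 1 was the lowest in both genotypes. The means were 61.6 ± 12.04 and 37.4 ± 8.79 (SD, n = 3). Their log2 fold change was -0.71 with a 95% interval of -1.35 to -0.07 (unadjusted p = 0.0337, adjusted p = 0.918, limma). The unadjusted p was under 0.05 in 12 of 16 alternatives, and over it without WT replicate 2 or 3 or *alh-4(-)* replicate 1 or 2.

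T08B2.7, now named *ech-1.2* and of the same enzyme type, had higher FPKM than *ech-1*, at 301, 239 and 308 in WT and 293, 280 and 328 in *alh-4(-)*. Its genotypes overlapped, with a log2 fold change of 0.09 (95% interval -0.36 to 0.55). B0272.3, a 3-hydroxyacyl-CoA dehydrogenase gene, had a log2 fold change of 0.33 (95% interval -0.20 to 0.86), and *kat-1*, the gene of a thiolase of the last step of a round, had -0.17 (95% interval -0.64 to 0.30). *kat-1* was at 1073, 881 and 932 FPKM in WT and 1008, 725 and 845 in *alh-4(-)*, with overlapping genotypes. *ech-5* varied most between replicates, at 6.79, 1.79 and 0.264 FPKM in WT and 4.53, 2.55 and 0.465 in *alh-4(-)*. It ranked the replicates alike in both genotypes, with replicate 1 the highest, and in the WBcel235 annotation it shares 140 exonic bases with a small nucleolar RNA gene.

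The carnitine palmitoyltransferases are best known through the human CPT1 enzyme, which makes acylcarnitines at the outer mitochondrial membrane, and CPT2, which turns them back into acyl-CoA inside. In worms, *cpt-1* and *cpt-2* were the abundant members of the family. *cpt-2* was at 889, 843 and 1056 FPKM in WT and at 1242, 1266 and 1361 in *alh-4(-)*. All *alh-4(-)* libraries were above all WT libraries. The means were 929 ± 112 and 1290 ± 62.7 (SD, n = 3), and the log2 fold change was 0.48 with a 95% interval of 0.06 to 0.89, the highest fold change of the members (unadjusted p = 0.0290, adjusted p = 0.898, limma). In 8 of 16 alternatives the unadjusted p was under 0.05. It was over 0.05 without WT replicate 1 or 2 or *alh-4(-)* replicate 2 or 3, without both replicate 1 libraries, with upper quartile or median scaling, and without a variance trend.

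*cpt-1* showed the narrowest interval of the family. Its FPKM was 692, 685 and 648 in WT and 681, 653 and 654 in *alh-4(-)*, with a log2 fold change of -0.03 (95% interval -0.40 to 0.35). The 6 libraries overlapped closely. *cpt-5* had the third highest log2 fold change of the members, 0.46 (95% interval -0.34 to 1.26), from 10.4, 9.71 and 17.6 FPKM in WT and 14.3, 14.97 and 23.2 in *alh-4(-)*. WT replicate 3 lay above 2 of the *alh-4(-)* libraries. *cpt-3*, *cpt-4* and *cpt-6* were at 34.3 FPKM or less in each library and had log2 fold changes from -0.24 to -0.06, with overlapping genotypes.

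**Figure D3:**
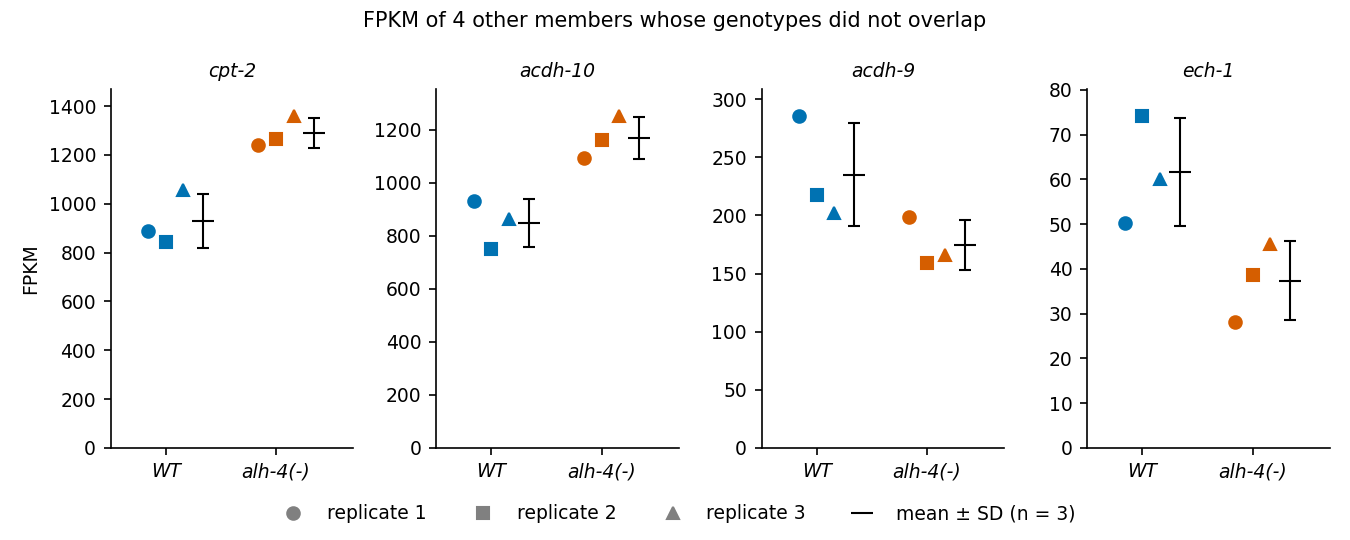
FPKM in each library of *cpt-2*, *acdh-10*, *acdh-9* and *ech-1*, the members outside the shunt whose genotypes did not overlap, 1 panel for each gene with its own linear axis from 0. Marker shapes give the replicate, and horizontal lines with bars are the mean and SD of 3 libraries. The gap between genotypes is narrow for *acdh-9*, with WT replicate 3 at 202 and *alh-4(-)* replicate 1 at 199.

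With *alh-4(-)* and WT taken separately, replicate 1 was the highest library of both genotypes in 8 of the 35 tested members (22.9%), against 8.52% of all tested genes, and the lowest of both in 13 (37.1%), against 38.03%. The differences reached more than 2-fold for some members. *acdh-1* was lower in replicate 1 than in the mean of replicates 2 and 3 by -1.36 in WT and -1.69 in *alh-4(-)* on the log2(FPKM + 1) scale. *acdh-6* (-1.02 and -0.88) and *acdh-8* (-0.86 and -0.87) were lower in both as well. *hach-1* was higher by 0.42 and 0.21, and *ech-5* by 2.05 and 1.28. *acdh-2* went in opposite directions, at 1.17 in WT and -1.77 in *alh-4(-)*. For *acdh-1*, *acdh-2*, *acdh-6*, *acdh-8* and *ech-5* these differences were larger in size than the log2 fold change between the genotypes. For *hach-1* they were smaller.

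**Figure D4:**
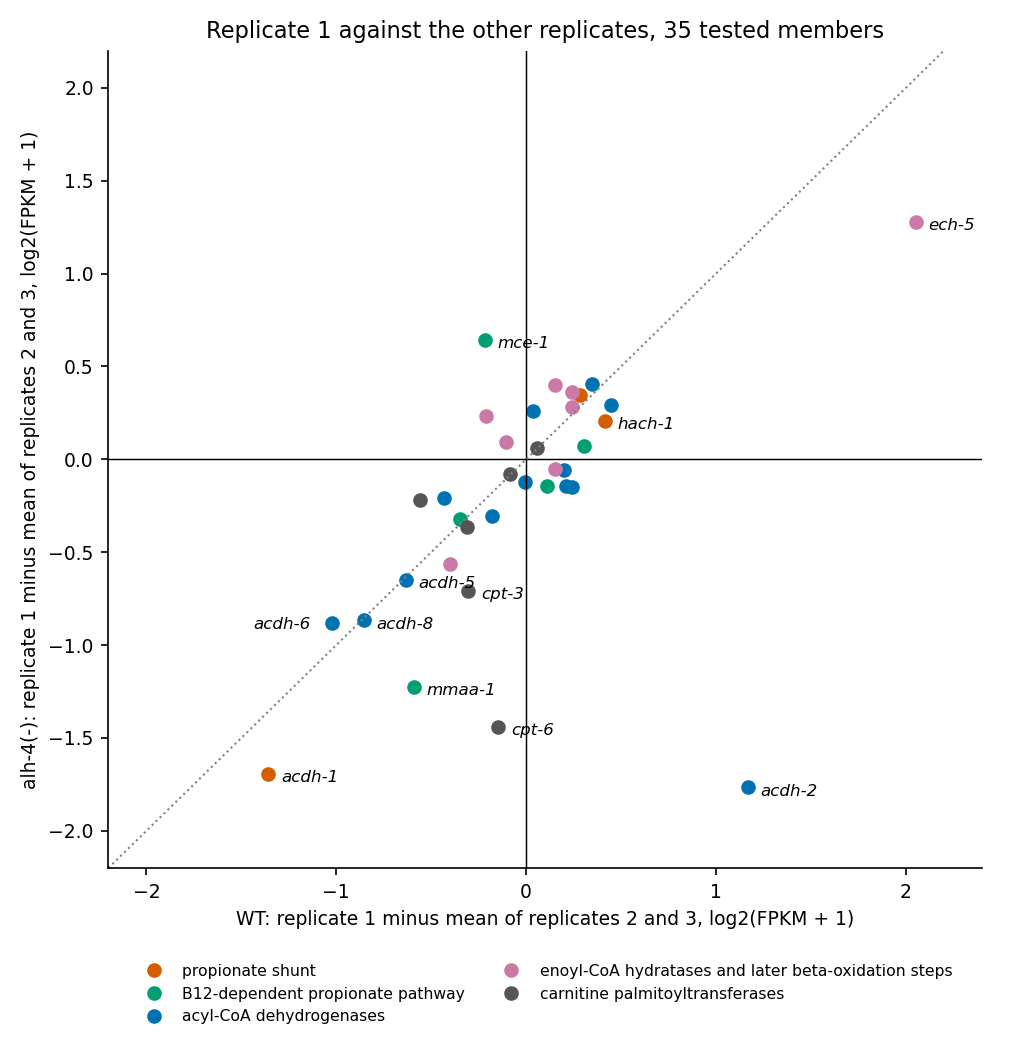
Difference of replicate 1 from the mean of replicates 2 and 3 on the log2(FPKM + 1) scale, WT on the horizontal and *alh-4(-)* on the vertical axis, 1 point for each of the 35 tested members colored by role. The dotted line marks equal differences. *acdh-1*, at -1.36 and -1.69, and *ech-5*, at 2.05 and 1.28, lie far from 0 on the same side in both genotypes, and *acdh-2* lies on opposite sides.

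Other genes of these pathways were compared from fixed lists, and none passed the adjusted threshold. Of 8 tested genes for other mitochondrial β-oxidation enzymes, 1 had an unadjusted p under 0.05. This was F53C11.3, now named *decr-1.1*, a gene of the 2,4-dienoyl-CoA reductase family needed for unsaturated fatty acids. Its FPKM was 112, 74.8 and 101 in WT and 182, 174 and 185.5 in *alh-4(-)*, with all *alh-4(-)* libraries higher. Its log2 fold change was 0.92 (standard error 0.22, unadjusted p = 0.00362, adjusted p = 0.433, limma), and the unadjusted p stayed under 0.05 in all 16 alternatives. The genotypes of 2 more genes of that list, *hacd-1* and B0303.3, were separate and higher in *alh-4(-)*, which makes 3 of 8 beside 5.97% of all tested genes.

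Of the 8 regulators of fatty acid breakdown listed, only the nuclear receptor gene *nhr-13* had an unadjusted p under 0.05. It was at 85.0, 138 and 167 FPKM in WT and 240.2, 205 and 253 in *alh-4(-)*, without overlap. Here the log2 fold change was 0.89 (unadjusted p = 0.0159, adjusted p = 0.728, limma), and the unadjusted p was over 0.05 in 1 of 16 alternatives, without *alh-4(-)* replicate 3. *nhr-79* and *hlh-11*, with log2 fold changes of 0.77 and 0.30, were also separate and higher, so that 3 of 8 regulators were, beside 5.97% of all tested genes. *nhr-49*, a nuclear receptor gene known for its control of fatty acid breakdown, had a log2 fold change of 0.51 (unadjusted p = 0.0504, limma) and overlapping genotypes. Of the other lists, none of 6 genes of the B12-dependent pathway, 5 genes of B12 sensing and methionine synthase, 3 genes of the electron transfer flavoprotein that takes electrons from acyl-CoA dehydrogenases, and 8 tested genes of branched-chain amino acid breakdown had an unadjusted p under 0.05. Their median log2 fold changes were 0.04, 0.09, -0.12 and -0.10.

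In the WBcel235 annotation, 28 of the 35 members with a gene model share no exonic base with another protein-coding gene, and the overlaps of the other 7 are at most 123 bases. Of these, 5 are with a gene on the opposite strand, and the library protocol does not keep strand. Members with these overlaps include *acdh-2*, which shares 87 bases with *ins-13*, and *acdh-12*. The members with a gene model lie on all 6 chromosomes, with 7 on chromosome I, 8 on II, 6 on III, 6 on IV, 3 on V and 5 on X.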

How the data were processed

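The authors prepared libraries of whole worms by a Smart-seq2 protocol, mapped reads to ce10, took transcripts from the Illumina iGenome annotation of that assembly, and deposited 1 FPKM value for each gene in each library. Replicates were not pooled. The submitters' processing notes name bcl2fastq 2.19, Trimmomatic 0.36, HISAT2 2.1.0, SAMtools 1.3 and StringTie 1.3.3. Low FPKM values times exonic length in WBcel235 showed no steps of single reads (22.3% to 24.1% of 2000 values in each library lay within 0.1 of a whole multiple). Those lengths can differ from the ce10 lengths behind the FPKM, so this check cannot show that steps are absent. Depth is therefore unknown, and no interval that needs it is given. FPKM summed to between 3310620 and 3364265 in each library.

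Values were transformed to log2(FPKM + 1), a scale on which fold changes of weakly expressed genes come out too small. Genes whose FPKM averaged at least 1 over the libraries (16225) entered a two-sided limma test (version 3.58.1, R 4.3.3) with empirical Bayes moderation along a mean-variance trend. All 6 libraries were in the fit, and p-values were adjusted over these genes by the Benjamini-Hochberg method. The test was checked on simulated data with independent errors in each library. Differences shared by libraries, such as that of replicate 1, were not simulated. Exact permutation tests were not used, since 3 against 3 libraries allow no p below 0.1. Tables and figures were made with Python 3.11.15, pandas 2.3.3 and Matplotlib 3.10.9. P-values set the difference between genotypes against the spread between biological replicates, which limma moderates for each gene toward the trend over all tested genes.

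The names in the deposited table were looked up in RefSeq for WBcel235. Of 28641 names, 26385 are current symbols, 1814 are locus tags only and 442 match neither. Coordinates were not converted from ce10. Sharing of reads between close paralogs, such as *acdh-1* and *acdh-2*, was not tested.

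The members, roles, pathway lists and marker lists were chosen with earlier results of these data known. Values by library are given for *alh-4*, for members of the propionate shunt and the B12-dependent pathway, for members with an unadjusted p under 0.05 or separate genotypes, and for the 3 highest and 3 lowest log2 fold changes, with up to 3 examples for each other role. Of the pathway lists, the shunt genes and those with an unadjusted p under 0.05 are named. *ech-5*, *hacd-1*, B0303.3, *acdh-6*, *acdh-8*, *nhr-79*, *hlh-11*, *nhr-49* and the hypodermis markers were named after their values were seen. Alternatives were upper quartile, median and quantile scaling, no filter or a minimum mean of 10, a pseudocount of 0.1, moderation without the trend, library quality weights, a replicate block, and fits that omit 1 library. A fit without both replicate 1 libraries was chosen after seeing the data.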

Additional observations from a re-analysis of the deposited data

How the results depend on the processing

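No member of the acyl-CoA and propionate breakdown set had an adjusted p under 0.05 in any of the 16 alternatives, and *alh-4* did in all 16. Of the 35 tested members, 18 kept the sign of their fold change in every alternative and 17 changed it in at least 1. The number of all tested genes with an adjusted p under 0.05, 23 in the reported fit, was 11 without a filter on low values, 36 with quantile normalization, 35 with upper quartile scaling, 91 with array quality weights, 15 with the replicate number as a block, 6 to 25 with 1 library left out, and 9 without both replicate 1 libraries. The number of members with an unadjusted p under 0.05, 4 in the reported fit, was 2 with upper quartile scaling, median scaling or eBayes without a trend, which lost *cpt-2* and *acdh-10*, 7 with array quality weights, where 14.6% of all tested genes had such a p, and 1 to 4 with 1 library left out, where 3.297% to 10.96% had. *hach-1* was the only one left without replicate 2 of either genotype. The number of members with separate genotypes, 5 with all libraries, was 3 with median scaling (10.3% of all tested genes), 5 to 11 with 1 library left out (14.1% to 33.9%), and 16 without both replicate 1 libraries, where 41.1% of all tested genes were separate. The median log2 fold change of the members, 0.01, was -0.067 with upper quartile scaling, -0.051 with median scaling, 0.16 with array quality weights and from -0.0058 to 0.11 with 1 library left out. Over all tested genes the median was 0.07 in the reported fit. It was -0.012 with upper quartile scaling, 0.0014 with median scaling and 0.20 with array quality weights. With 1 library left out it ran from -0.0034 to 0.24. Libraries that share a replicate number had correlations across genes of 0.31, 0.28 and 0.00 between their deviations from the mean of the genotype. The reported fit had no replicate block, because the other tests of the study were unpaired. Whether the numbers pair the libraries was not tested. With the replicate block, 5 members had an unadjusted p under 0.05, *acdh-9* being the one added, and the share of all tested genes was 8.499%, against 4.97% without the block. The cause of these differences was not tested. With 3 libraries for each genotype, a member's 95% interval spans changes of over 2-fold in 11 of 35 cases, and the unknown depth sets no detection limit for low genes such as *mce-1*, *cpt-3*, *ech-5* and *ech-9*.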
